A study of Rattus norvegicus with 12 samples.

Results

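miR-193 and miR-365 are a pair of miRNAs whose genes lie side by side in the rat genome, and their signals were followed in soleus, a slow postural muscle of the hind limb, of 12 male Sprague-Dawley offspring aged 1 year. The members were taken as the guide-strand rows named rno-miR-193 and rno-miR-365, which are 2 of the 677 rat miRNAs on the array, and both rows were found. Control offspring (n = 6) had dams fed a control diet, and high fat offspring (n = 6) had dams fed a diet rich in fat and sugar before mating and during pregnancy and suckling. All offspring ate chow after weaning, and each rat's total RNA was on 1 single-colour Agilent miRNA array. Litters were not given, so the p-values below measure the spread between these rats, some of which may be siblings. The arrays were spread over 2 slides, each with 3 rats per diet. The first slide held control rats C73, A110 and C60 and high fat rats C51, H3 and H1, and the second held control rats H10, A89 and A75 and high fat rats C25, H20 and A37.

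MicroRNAs are short RNAs that are cut from a hairpin precursor, loaded into an Argonaute protein and paired with messenger RNAs through a seed near their 5′ end, which lowers the stability or translation of the target. The gene of miR-193b with that of miR-365 is known as a cluster studied in the differentiation of brown adipocytes, cells that share a lineage with skeletal muscle. miR-193a, the paralog of miR-193b, has also been studied as a growth-restraining miRNA in tumour cells. These roles are background, and no adipocytes or target proteins were measured in the arrays used here.

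The sequences are shown so that the paralogs of miR-193 can be compared and the seeds of the pair told apart. RefSeq's table for GRCr8 gave the mature forms of both members, with the array's miR-193 and miR-365 under the current names miR-193a-3p and miR-365-3p, and capitals mark the seed, bases 2 to 8.
rno-miR-193a-3p: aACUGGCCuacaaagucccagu
rno-miR-365-3p: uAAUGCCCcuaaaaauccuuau
rno-miR-193b-3p: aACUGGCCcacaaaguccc
rno-miR-3549: aUCUUGCCcgcaaagaccc
The members have different seeds. Of 693 mature rat names in the table, 2 hold the seed of miR-193a-3p, namely miR-193a-3p and miR-193b-3p, and 1 holds that of miR-365-3p. miR-193b-3p, as listed, had 1 substitution from miR-193a-3p over the 19 positions both have, U9C, counted from the 5′ end with the base of miR-193a-3p first. The array had 0 rows named miR-193b, and how far the miR-193 probes bind miR-193b was not tested.

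In GRCr8, Mir193 lies at chr10:65170317-65170402 and the neighbouring hairpin, listed as Mir365b, at chr10:65184217-65184302, both on the plus strand and 13814 bases apart. miR-193a-3p lies at chr10:65170370-65170391 and miR-365-3p at chr10:65184271-65184292. The stretch from Mir193 to Mir365b is overlapped by 1 coding gene, listed as Faul2, which overlaps at least 1 of the hairpins. Its exons were not given. The nearest coding genes on either side of this stretch are Rab11fip4 and Utp6. The table holds 1 Mir365 hairpin. Mir193b is on chromosome 10 as well, 63.3 Mb from Mir193. By name the array's miR-193 is therefore the miR-193a copy and not the miR-193b copy for which the cluster's role in brown adipocytes is best known. Whether all of the miR-365 signal comes from the hairpin beside Mir193 was not tested. miR-3549 is shown because it comes from the other strand at chr10:65170337-65170355, opposite 19 bases of miR-193a-5p, the passenger arm of the same hairpin.

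Both members were detected in 12 of 12 rats, so both are present in soleus RNA of either diet group. Over the arrays 162 miRNAs were detected in every rat, 193 in at least 6 rats and 432 in no rat. To set the arrays on 1 level, signals were divided by their array's 75th percentile, taken over the 162 miRNAs seen in every rat, and brought back to signal units with a common factor (scaled signals). This percentile ran from 864 to 1911 signal units, and 3 arrays of the first slide were dimmer by it than all arrays of the second. 1 rat went against the soleus label in part. In high fat rat H3 the scaled signals of the slow-muscle miRNAs were 366 for miR-499, against 4553 to 9137 in the other 11 rats, and 9354 for miR-206, against 30841 to 60699. miR-208b was undetected in H3 and detected in the other 11, while miR-1, found in all striated muscle, was higher in H3 at 136123 than in the others (51591 to 106415). Results of the pair that rest on H3 are therefore given with and without it. In a whole muscle, fewer cells of a type and less RNA per cell cannot be told apart.

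The scaled signal of miR-193 was 365 in C73, 329 in A110, 312 in C60, 163 in H10, 246 in A89 and 228 in A75 among control offspring. In high fat offspring it was 134 in C51, 363 in H3, 295 in H1, 370 in C25, 234 in H20 and 203 in A37. The diet groups overlapped nearly completely, with the lowest rat (C51) and the highest (C25) both in the high fat group. The mean was 274 ± 74.8 (SD, n = 6) in control and 267 ± 93.2 (SD, n = 6) in high fat offspring.

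The scaled signal of miR-365 was 185 in C73, 175 in A110, 181 in C60, 287 in H10, 311 in A89 and 341 in A75 among control offspring. In high fat offspring it was 147 in C51, 582 in H3, 226 in H1, 256 in C25, 249 in H20 and 190 in A37. Control offspring fell into a low trio and a high trio, which were the rats of the first and of the second slide, while H3 stood far above every other rat. The mean was 247 ± 74.6 (SD, n = 6) in control and 275 ± 156 (SD, n = 6) in high fat offspring, and 214 ± 45.4 (SD, n = 5) in the latter without H3. The coefficient of variation of miR-365 in high fat offspring went from 56.7% to 21.3% when H3 was left out. The scanner's own error was 8.28% to 9.29% of the signal for miR-193 and 7.79% to 8.19% for miR-365, smaller than the spread between rats in both groups.

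**Figure D1:**
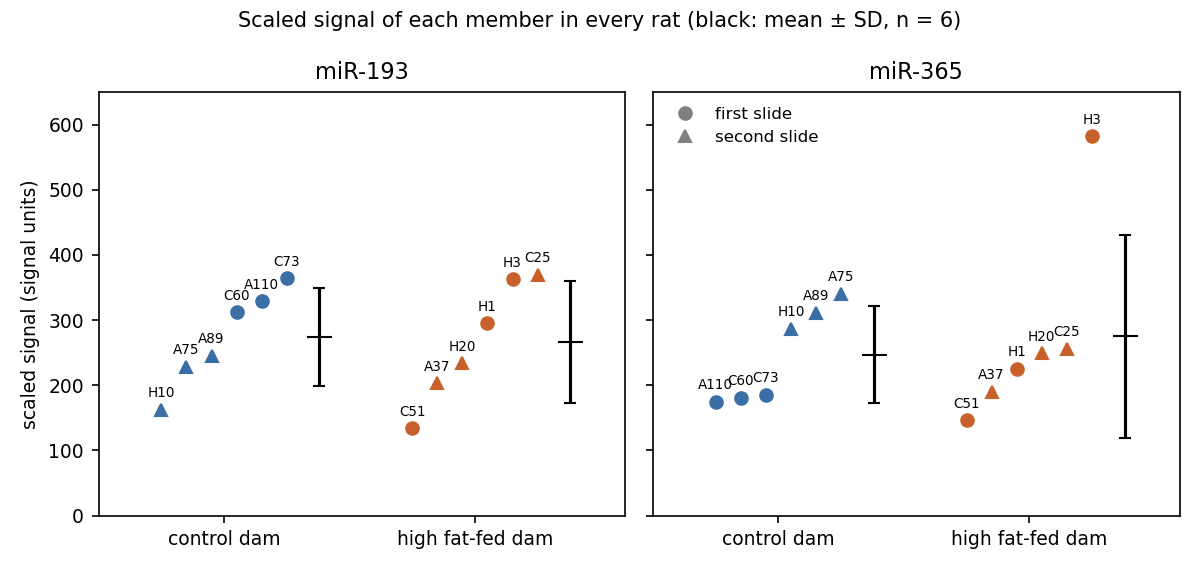
Scaled signal (signal units, vertical axis) of miR-193 (left) and miR-365 (right) in each rat, by dam diet. Points are rats sorted by signal within a group, circles the first and triangles the second slide, and black bars the mean ± SD of 6 rats. miR-193 ran from 134 to 370 and miR-365 from 147 to 582, and in miR-365 the control circles (175 to 185) lie below the control triangles (287 to 341).

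Whether the dam's diet changed the pair was asked by comparing high fat with control offspring. Neither member passed the test. On the log2 scale miR-193 differed by -0.07 (SE 0.27, 95% interval -0.66 to 0.51), with a Benjamini-Hochberg adjusted p of 0.949 in limma. miR-365 differed by 0.06 (SE 0.30, 95% interval -0.59 to 0.72), with an adjusted p of 0.968 in limma. The intervals correspond to folds of 0.633 to 1.43 for miR-193 and 0.663 to 1.65 for miR-365. Changes within these limits remain compatible with the data of 6 rats per group. By unadjusted p, miR-193 was 161st and miR-365 166th among the 193 miRNAs tested. Exact two-sided permutation tests gave p = 0.792 for miR-193 and p = 0.857 for miR-365, and p = 0.77 and p = 0.925 when rats were exchanged within slides only.

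Among the 193 miRNAs, limma called 0 (0.0%) at an adjusted p under 0.05 and 2 (1.04%) at an unadjusted p under 0.05. The scaled values were lower in high fat offspring for 154 of them (79.8%), with a median log2 difference of -0.17, and without scaling the median was 0.14. Relative to that median, miR-193 was higher by 0.094 and miR-365 by 0.23 in the scaled values. The sign of the miR-193 difference turned to 0.24 without scaling and to 0.11 after quantile normalization, and that of miR-365 turned to -0.099 without H3, when miR-193 differed by -0.097. No direction can be given to either member.

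The pair was also compared between the 2 slides, a comparison chosen after the values were examined. Within 1 array, the log2 signal of miR-365 minus that of miR-193 does not depend on the scaling of the array. The size of this difference has no meaning of its own, because the probes of the 2 miRNAs need not be equally bright, and it was compared between rats only. In control offspring of the first slide it was -0.98 in C73, -0.91 in A110 and -0.78 in C60. In control offspring of the second slide it was 0.82 in H10, 0.34 in A89 and 0.58 in A75. The 2 trios of control rats did not overlap, the second slide standing higher by 1.47 (exact two-sided permutation test, n = 3 and 3, p = 0.1, the smallest that 3 rats against 3 allow).

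In high fat offspring the same difference was 0.13 in C51, 0.68 in H3 and -0.39 in H1 on the first slide. On the second slide it was -0.53 in C25, 0.09 in H20 and -0.10 in A37. These trios overlapped, the second slide differing from the first by -0.32 (exact two-sided permutation test, n = 3 and 3, p = 0.4).

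Over all 12 rats the second slide differed from the first by 0.58 (exact two-sided permutation test, p = 0.119).

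Taking both slides together, the log2 difference between the members was -0.16 ± 0.82 (SD, n = 6) in control and -0.018 ± 0.43 (SD, n = 6) in high fat offspring, and the diet groups differed by 0.14 (exact two-sided permutation test, p = 0.714, and p = 0.695 within slides). On the first slide high fat rats were higher by 1.03 and on the second lower by 0.76 than the control rats, without overlap of the diets on either. The second of these diet effects minus the first was -1.79 (exact two-sided permutation test within slides, 400 assignments, p = 0.005, the smallest they can give). Leaving out each rat in turn gave -2.05 to -1.52, with exact p from 0.005 to 0.01. These p-values restate the separation: diets that do not overlap on either slide and differ in opposite directions fix p at its minimum, and the comparison was chosen after that separation was seen. Of all 13041 pairs of the miRNAs detected in every rat, 399 (3.06%) showed the same kind of separation, as did 2 of the other 24 pairs of neighbouring genes described further on. Without H3 the diet difference over both slides was -0.0023 and the difference between slides -1.52. Because the pooled diet difference averages effects of opposite sign, it does not describe either slide.

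**Figure D2:**
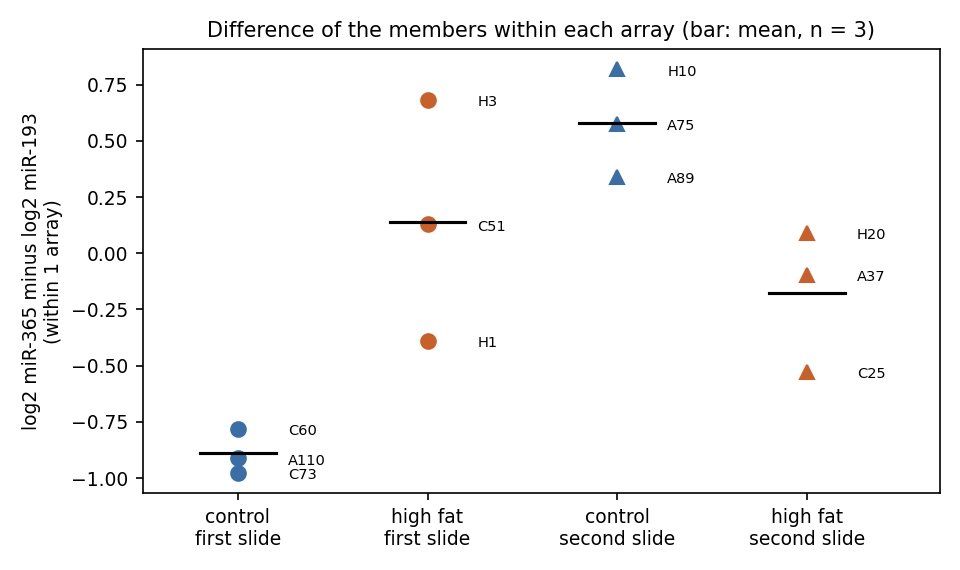
log2 signal of miR-365 minus log2 signal of miR-193 within each array (vertical axis) for the 4 combinations of diet and slide, with 1 point per rat and a bar at the mean of 3 rats. Control rats of the first slide lie between -0.98 and -0.78 and those of the second between 0.34 and 0.82, while high fat rats lie between -0.53 and 0.68 on both slides.

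Each member contributed to this. From the first slide to the second, miR-365 rose in control offspring by 0.79 on the log2 scale (SE 0.13, limma adjusted p = 0.0298), a fit in which 6 of 193 miRNAs (3.11%) were called. miR-193 differed in the same fit by -0.68 (SE 0.19, limma adjusted p = 0.107). In high fat offspring alone miR-365 differed by -0.22 and miR-193 by 0.097 between slides (limma adjusted p = 0.874 and 0.943). With all 12 rats and diet as a term, the slide differences were 0.28 for miR-365 and -0.29 for miR-193 (limma adjusted p = 0.709 and 0.664), where 15 miRNAs (7.77%) were called. Without H3 miR-365 was higher on the second slide by 0.59 in that fit (SE 0.15, limma adjusted p = 0.0325), where 21 miRNAs (10.9%) were called. H3 held the highest miR-365 signal and was on the first slide, so leaving it out raises this difference by construction.

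Such splits were not particular to the pair. Control rats of the 2 slides did not overlap in 48 of the 193 miRNAs (24.9%), of which 25 (13.0%) were higher and 23 (11.9%) lower on the second slide. The diets did not overlap in 25 miRNAs (13.0%) on the first slide and in 31 (16.1%) on the second. The diet effect on the second slide minus that on the first was 0.78 for miR-193 and -1.01 for miR-365 (exact two-sided permutation tests within slides, p = 0.195 and p = 0.07, and limma adjusted p = 0.695 and 0.564), a fit that called 0 miRNAs (0.0%) at an adjusted p under 0.05 and 21 (10.9%) at an unadjusted p under 0.05. Slide and rat cannot be told apart in a trio, since each rat was measured on 1 slide only.

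Neighbouring miRNA genes on 1 strand are often transcribed together, so the pair was asked to rise and fall together over the rats. Over all 12 rats the log2 signals of miR-193 and miR-365 had Pearson's r = 0.24 (permutation p = 0.448, adjusted 0.731) and Spearman's rho = 0.070 (permutation p = 0.835, adjusted 0.835). These 2 coefficients were computed for 3 relations, the pair and each member against the brightness of the array, and adjusted over the 3. Against brightness r was -0.20 for miR-193 (permutation p = 0.528) and 0.11 for miR-365 (permutation p = 0.731). Leaving out C51 and H10, the rats farthest from the median of miR-193, gave r = 0.059 (permutation p = 0.881). Without H3 r was -0.11. Without scaling r was 0.46 (permutation p = 0.133) and rho 0.57 (permutation p = 0.0604). After quantile normalization r was 0.24 and rho -0.23. Over the 12 rats no co-variation was detectable at a permutation p under 0.05 in these settings.

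The relation differed with the subset. Within the first slide r was 0.48 (exact permutation p = 0.226, n = 6) and within the second 0.015 (exact permutation p = 0.978, n = 6). In control offspring r was -0.78 (exact permutation p = 0.0917, n = 6), where the rats of the 2 slides form separate clusters at opposite corners. In high fat offspring r was 0.77 (exact permutation p = 0.0778, n = 6), with rho = 0.886 (exact permutation p = 0.0333). When each member was centred on the mean of its slide and diet, r was 0.78, with p = 0.0995 in the exact permutation test that exchanges rats within the trios. With other scalings this centred r was 0.81 or 0.82, with exact permutation p from 0.00926 without scaling to 0.157 after median scaling, and it ran from 0.50 to 0.88 with 1 rat left out, lowest without C51 and 0.78 without H3 (exact permutation p = 0.213). The centred relation therefore passed 0.05 without scaling and when the 75th percentile was taken over the whole array (exact permutation p = 0.0270), and missed it otherwise.

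**Figure D3:**
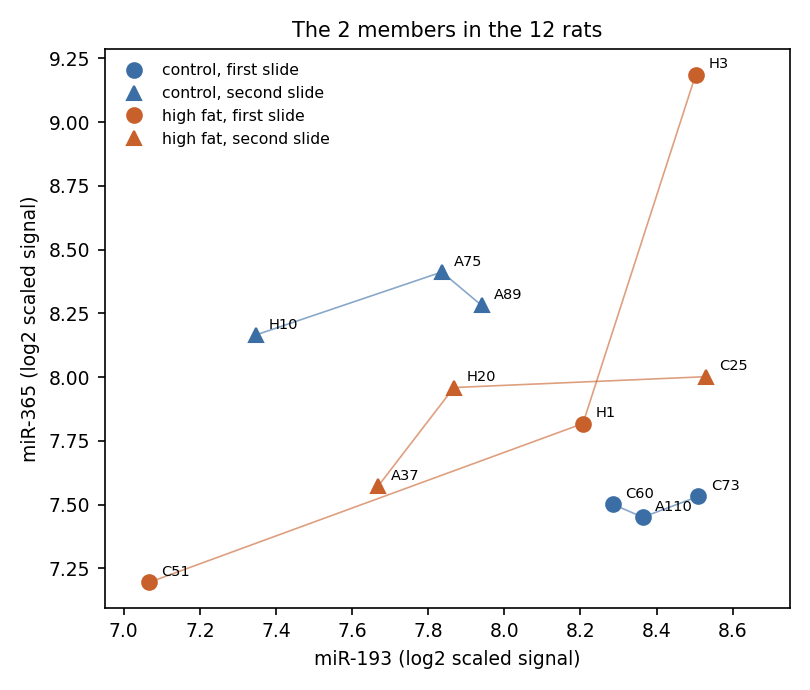
log2 scaled signal of miR-365 (vertical axis) against that of miR-193 (horizontal axis) in the 12 rats, coloured by dam diet, with circles for the first and triangles for the second slide, and thin lines joining the 3 rats of 1 diet on 1 slide. Control rats of the first slide lie at the lower right and those of the second at the upper left, and H3 lies apart at the top.

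Other neighbouring miRNA genes give the scale of this co-variation. Of 135 rows detected in every rat and not named as a star (passenger) strand, 98 were placed in the RefSeq table. Of these, 25 pairs lay on 1 strand within 20000 bases of each other. Both arms of the miR-125a hairpin were among the rows. miR-125a-3p had r = -0.16 with miR-99b and 0.08 with let-7e, both below the r of miR-193 with miR-365. miR-193 and miR-365 (r = 0.24) stood below 19 and above 5 of the other 24 pairs, whose median r was 0.71 and whose range was -0.16 to 0.95. After centring within slide and diet, the pair (r = 0.78) stood below 14 of the other 24, whose median was 0.83. At 13814 bases miR-193 and miR-365 lay the farthest apart of the 25 pairs. The other 24 lay 79 to 12692 bases apart, most of them within 5123. Whether r depends on this distance was not tested. Pairs that share a miRNA or a cluster are not independent, and all share the 12 arrays, so these values are given as a description without a test.

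**Figure D4:**
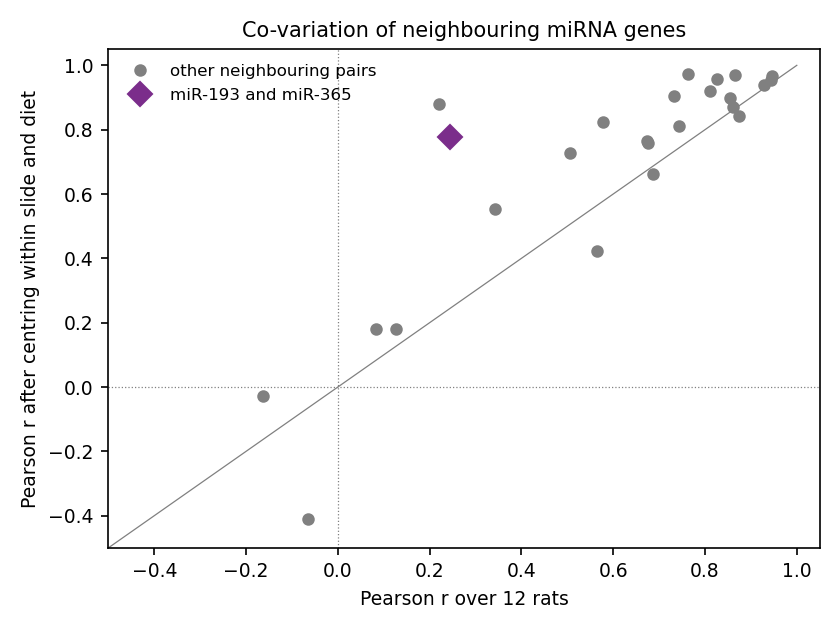
Pearson's r of the log2 scaled signals of neighbouring miRNA genes over the 12 rats (horizontal axis) and after centring within slide and diet (vertical axis). Grey points are the other 24 pairs, the diamond is miR-193 with miR-365, and the diagonal marks equal values. The diamond moves from 0.24 to 0.78, above the diagonal.

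Among the other 161 miRNAs detected in every rat, miR-365 took the 56th place by r with miR-193, and miR-193 the 37th place by r with miR-365. The median r over these miRNAs was 0.12 with miR-193 and -0.17 with miR-365. After centring within slide and diet each was the 6th of 161 in the other's order.

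The 5 miRNAs most like miR-193 by Pearson's r over 12 rats were miR-362* (0.87), miR-99a* (0.77), miR-500 (0.76), miR-532-5p (0.70) and miR-144 (0.66), the last a miRNA of red blood cells. The genes of miR-362*, miR-500 and miR-532-5p lie together on chromosome X, within 11542 bases, and these were the 3 of 11 array rows from that neighbourhood that were detected in every rat. Their r with miR-365 was -0.038, 0.34 and -0.24, and whether these differ from their r with miR-193 was not tested. miR-362* kept the 1st place without scaling, after quantile normalization and without H3, and was 3rd after centring within slide and diet. miR-99a* went to 0.15 and the 44th place after quantile normalization, and to 0.87 and the 1st place after centring. miR-532-5p went to 0.39 and the 21st place after quantile normalization, and to 0.56 and the 26th place after centring. Without H3, 2 of the 5 remained among the leading 5, miR-362* and miR-99a* (4th). miR-500 then took the 6th place, miR-532-5p the 7th and miR-144 the 21st (r = 0.55).

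The 5 miRNAs most like miR-365 were miR-186 (0.89), miR-7a-1* (0.89), miR-378 (0.72), miR-218 (0.72) and miR-133a (0.70). This order changed without H3. Then the r of miR-186 was 0.70 and that of miR-7a-1* 0.70, and 0 of these 5 remained among the leading 5. miR-378 lies in the gene of the mitochondrial coactivator PGC-1β, and miR-133a is a muscle miRNA. Other muscle miRNAs detected in every rat went both ways. Over all 12 rats their r with miR-365 was 0.61 for miR-1, 0.46 for miR-133b, -0.67 for miR-206 and -0.56 for miR-499. These values without H3 are not given here.

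The other products of the 2 hairpins were at or near the limit of detection. Their precursors are printed with the member in capitals so that the arms can be told apart.
Mir193: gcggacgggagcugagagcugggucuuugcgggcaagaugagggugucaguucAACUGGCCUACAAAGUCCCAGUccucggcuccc
Mir365b: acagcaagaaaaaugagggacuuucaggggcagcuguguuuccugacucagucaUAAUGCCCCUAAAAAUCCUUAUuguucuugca
miR-193*, the passenger strand of miR-193, was detected in 1 of 12 rats, H3, at a listed signal of 4.35. miR-365* was detected in 0 of 12 rats. An undetected miRNA is listed at 0.1 in the files, which is a mark and not a level.

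miR-3549, from the strand opposite Mir193, was detected in 5 of 6 rats of the first slide and in 0 of 6 of the second. Its scaled signals were 11.1 in C73, 30.0 in A110, 12.5 in C60, 9.81 in C51 and 9.45 in H3, with H1 undetected. Of the 677 miRNAs it was the 1 detected in at least 5 rats of the first slide and in none of the second, and 2 showed the opposite. By diet it was detected in 3 of 6 control and 2 of 6 high fat offspring (Fisher's exact test, two-sided, p = 1).

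The pair was also set beside other miRNAs known to act on fat cell formation. Of 22 miRNAs listed as promoting adipocyte formation, 20 were found on the array by name and 18 were tested. Of these, 2 were higher and 16 lower in high fat offspring, with a median log2 difference of -0.15, and 0 passed the adjusted threshold. Of 23 listed as restraining it, 22 were found and 18 tested, of which 2 were higher and 16 lower, with a median of -0.19 and again 0 past the threshold. Over all 193 miRNAs 39 were higher and 154 lower, with a median of -0.17, so both lists lay close to the whole. The unadjusted p was under 0.05 for 1 of the promoting list, miR-204, at -0.80 (SE 0.32, limma adjusted p = 0.685), and for 0 of the restraining list. Of the 6 smallest p-values over both lists, the others belonged to miR-196a at -0.37, let-7b at -0.35, miR-27b at -0.28, let-7c at -0.28 and miR-130a at -0.29 (limma adjusted p = 0.685 for each). Without scaling these 5 differed by -0.056, -0.045, 0.029, 0.025 and 0.016. H3 had the lowest scaled signal of all rats in miR-204, at 32.6 against 67.4 to 213 in the others. It was also the lowest in miR-196a, let-7b, miR-27b and let-7c, but not in miR-130a (655, others 596 to 1258). The differences of these list members without H3 are not given here. let-7b and let-7c belong to the differentiation-linked let-7 family, and miR-27b and miR-130a are known to act on PPARγ, the regulator of fat cell formation.

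Among miRNAs with a role in brown or muscle lineage choice, miR-196a, which favours brown-like adipocytes, had a mean scaled signal of 544 ± 87.7 (SD, n = 6) in control and 427 ± 98.2 (SD, n = 6) in high fat offspring. miR-133a and miR-133b, which restrain the brown fat regulator Prdm16 in muscle precursors, differed by 0.038 and -0.062 on the log2 scale, and miR-378 by 0.075. miR-455, another brown fat miRNA, was detected in 0 of 12 rats, and miR-155 was not matched to a row by that name.

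The tissue label was checked with miRNAs of other cells. All 6 muscle miRNAs listed were on the array and 5 were detected in every rat, with miR-208b undetected in H3 alone, the rat whose miR-499 and miR-206 were low. The summed scaled signal of the muscle list ran from 165393 to 289822 in control and from 148139 to 261082 in high fat offspring, a sum set mostly by miR-1 and miR-133b, in which H3 does not stand out. The blood list ran from 2304 to 4518 in control and from 1939 to 4515 in high fat offspring, with H3 the highest of the latter. The vessel list ran from 10105 to 12027 in control and from 4977 to 11755 in high fat offspring, with H3 the lowest at 4977 and the other high fat rats at 8846 or more. The fibroblast list ran from 2755 to 7094 and from 2342 to 7391, and H3 was again the lowest. Liver and epithelial miRNAs summed to between 46.2 and 529 in control and between 48.0 and 392 in high fat offspring. Of the 9 on this list, miR-192 was detected in 12 rats, miR-122 in 10 at up to 406, miR-203 in 10 and miR-194 in 8, miR-200a and miR-200b in 1 each, and miR-200c, miR-141 and miR-375 in 0. Thus the rat with the highest miR-365 was also the lowest in the vessel and fibroblast sums and in miR-499, miR-206 and miR-208b. Not every list member followed its sum. In the blood list miR-451 was highest in H3 (3054, others 402 to 2363), but miR-150 was lowest (304, others 503 to 790). The remaining blood miRNAs found on the array lay within the others. In the vessel list miR-126, miR-143 and miR-145 were lowest in H3, but miR-218 was highest (113, others 22.9 to 81.2). In the fibroblast list miR-199a-3p and miR-199a-5p were lowest in H3, but miR-214 (354) lay within the others (252 to 1056). The part of these differences in its miR-365 signal was not tested. H3 stood apart from the other high fat rats in 10 of the 162 miRNAs detected in every rat, against 0 to 4 for each of the others.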

How the data were processed

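Soleus RNA of 12 rats was measured on 1 array each, and groups were taken from the sample labels. The authors deposited, for each array, background-subtracted signal intensity values summed per miRNA by the scanner software, with an error and a detection flag, and not normalized between arrays. Their series-wide table was identical to these (0 values differed). The authors' own analysis used GeneSpring GX, which was not used here. The genome build and the version of the scanner software are not given in the sources used here, and RefSeq GRCr8 tables were used for sequences and neighbours only.

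The 22 control rows were left out. Signals were scaled to each array's 75th percentile over the 162 miRNAs with detection in every rat, brought back with the geometric mean of these percentiles and floored at 5.17 before log2 was taken. Diet and slide were tested in limma 3.58.1 (R 4.3.3) with Benjamini-Hochberg adjustment across 193 miRNAs, those with detection in 6 or more rats. Single values had exact permutation tests and correlations 100000 permutations (SciPy 1.17.1). Named miRNAs were the members, their hairpin products, the 5 most like each member, the 6 list members with the smallest unadjusted p, and those best known in brown fat. The fit and the permutation tests were tested on simulated data.

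The pair and the lists were chosen with earlier results of these data known, and nothing rests on the lists as independent evidence. The tests of slides within diets, the slide fits with and without H3 and the difference between slides of the diet effect were chosen after seeing the data. So were the centring within slide and diet under other scalings, the comparison with neighbouring genes and with all pairs, and the look at chromosome X. The alternatives covered scaling, floor, filter, slide, label letter, array weights and each rat left out. The number of arrays limits the precision.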

Additional observations from a re-analysis of the deposited data

Results flagged for a closer look

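The scaled signal of miR-365 in high fat rat H3 was 582, set apart from the other 5 high fat rats (147 to 256) by a gap larger than Dixon's 95% limit for 6 values on the signal scale, but not on the log2 scale. Such a limit is passed by chance in about 1 of 20 groups. The diet effect on the log2 difference of miR-365 and miR-193 on the second slide minus that on the first was -1.79, with all high fat rats above the control rats on the first slide and below them on the second. It was chosen after this separation was seen, which fixes its permutation p at the smallest possible, so the difference has no independent test. miR-193*, which enters no comparison of diets, had a listed signal of 4.35 in rat H3 and was undetected in the other 11 rats, control rats included.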

How the results depend on the processing

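The count of miRNAs called for diet at an adjusted p under 0.05 was 0 under all 27 alternatives, of which 1 was the methods' t-test and the others limma fits, with 1 to 15 at an unadjusted p under 0.05. The diet difference of miR-193 reversed to 0.098 with the 75th percentile over all miRNAs, 0.11 after quantile normalization, 0.24 without scaling and 0.10 with median scaling. With 1 rat left out it ran from -0.18 to 0.11, reversing without C73, C51, C60 or A37. That of miR-365 reversed to -0.063 with the label letter as a block and to -0.010 with array weights. With 1 rat left out it ran from -0.099 to 0.24, reversing without C73, A110 or H3. The log2 difference of the members between diets ran from -0.026 to 0.33 with 1 rat left out, reversing without C73, A110 or H3. The r of the pair over 12 rats ran from 0.23 to 0.46 with other scalings. It was -0.78 within control rats and ran from -0.11 to 0.35 with 1 rat left out, reversing without C51 or H3. The difference of the diet effect between slides ran from -2.05 to -1.52 in the 12 leave-one-out settings. Leaving out 1 rat cannot undo the separation for which it was chosen. Its sign and its side of the threshold were therefore fixed in advance and are no evidence that it is robust. The cause of the reversals was not tested. No paired analysis was possible because the labels give the rats no replicate numbers shared between the groups. With 6 rats per group, on 2 slides, the diet intervals were wider than 1 on the log2 scale. Differences of either member within these intervals remain compatible with the data.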
